A study of Mus musculus with 83 samples.

Results

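Sfrp4, Wnt4, Fzd1, Fzd4 and Ctnnb1 were followed through 83 single mouse ovarian follicles. They are 5 of 21571 gene symbols in the deposited count table, and the labels of the libraries, not the genes, define the groups. The 5 genes were chosen from measured values of these same libraries, so their levels and fold changes are given as description and without p-values. All 5 passed the filter on low counts, Wnt4 only through the few libraries in which it was highest.

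Follicles came from wild-type CD-1 mice, an outbred strain, and were used fresh or after vitrification, a way of freezing tissue so fast, with cryoprotectants, that its water sets as a glass. Both kinds grew for 8 days in 0.5% alginate with recombinant FSH. Follicles of 300 to 350 µm were then freed and placed in maturation medium and collected after 0, 1, 4 or 8 h. This medium held recombinant FSH (10 mIU/ml), EGF (10 ng/ml) and hCG (human chorionic gonadotropin, 1.5 IU/ml), a hormone that stands in for the luteinizing hormone surge. All groups shared the 8 days of culture in alginate, the controls at 0 h included, and these controls were collected before hCG. Fresh follicles numbered 18, 6, 7 and 4 at these times, and vitrified follicles 15, 14, 7 and 12. Each library was made from 1 follicle. The age of the mice, and which follicles shared an animal or a culture run, are not given in the sources used here, so an animal, a culture run and vitrification cannot be told apart, and p-values below measure only the spread between follicles.

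Titles placed the libraries on 3 plates, which are shown apart throughout. The 0 h plate held all 33 libraries of 0 h and no others, so the step from 0 to 1 h and the change of plate cannot be told apart. The shared plate held every fresh library taken after hCG, and from vitrified follicles 5 libraries at 1 h, 7 at 4 h and 3 at 8 h. The vitrified-only plate carried no fresh follicle, only 9 vitrified ones at 1 h and 9 more at 8 h. None of the 12 plate rows in the titles held more than 1 group, so group and row cannot be told apart either.

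The smallest library held 682200 counts and the largest 6504588, with 11830 to 17233 genes detected. Levels are given as CPM, the count of a gene relative to the library's total as scaled by TMM. The summed CPM of 10 granulosa cell markers had medians of 74253 to 122248 over the groups of 0, 1 and 4 h and of 12638 to 15787 over those of 8 h, so that they were lower at 8 h in fresh follicles and in vitrified follicles of both plates. Oocyte markers summed to between 1.69 and 109 CPM, endothelial markers to at most 106 CPM. The 1 erythroid marker with a row reached at most 1.37 CPM. Immune markers summed to at most 97.3 CPM. At 8 h they were 28.4 to 34.4 in vitrified follicles of the shared plate and 13.5 to 26.7 in fresh follicles. Their 8 h median was 1.44 on the vitrified-only plate. At 1 h on the shared plate they were higher in fresh (19.4 to 55.3) than in vitrified follicles (0 to 7.68). Immune medians at 0 h were 14.1 in fresh and 1.11 in vitrified follicles. Endothelial medians at 1 h on the shared plate were 51.5 in fresh and 11.9 in vitrified follicles, with overlap. Theca and stroma markers had a summed median of 3732 CPM in fresh follicles at 0 h, 4749 at 1 h, 957 at 4 h and 501 at 8 h. In vitrified follicles the corresponding medians were 5372, 4015, 719 and 1056 CPM on the 0 h and shared plates. Where any of these markers move with a gene below, Sfrp4 at 1 h included, their part in the result was not tested. A fall in a whole follicle can be fewer cells of a type or less RNA per cell, and these cannot be told apart.

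Before the results, 2 libraries need naming. Fresh 4 h replicate 7 held 4117 CPM of Sfrp4 where the other 6 fresh 4 h libraries held 79.5 to 216 CPM. Vitrified 1 h replicate 4, on the shared plate, held 41.2 CPM of Fzd1 where the other 4 held 2.71 to 7.17 CPM. Values that rest on them are given with and without them.

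Wnt proteins are secreted, lipid-modified ligands that bind Frizzled receptors and their co-receptors at the cell surface. In the canonical branch this stops a cytoplasmic destruction complex from marking beta-catenin for breakdown, and beta-catenin then acts with TCF/LEF factors in the nucleus. Secreted frizzled-related proteins, Sfrp4 among them, carry a Frizzled-like domain that can bind Wnt ligands outside the cell. In the ovary, Sfrp4 and the receptors Fzd1 and Fzd4 are known as genes of ovulating follicles and corpora lutea, Wnt4 as a ligand needed for female gonad development, and Fzd4 as a receptor needed for normal corpora lutea. Ctnnb1 encodes beta-catenin, which also holds cells together at adherens junctions.

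Positions are from GENCODE vM21 on GRCm38, and each gene is protein-coding. Sfrp4 lies on the plus strand at chr13:19623104-19632994 and Wnt4 on the plus strand at chr4:137277489-137299726. Fzd1 lies on the minus strand at chr5:4753839-4758035 and Fzd4 on the plus strand at chr7:89404355-89413134. Ctnnb1 lies on the plus strand at chr9:120929216-120960507. The 250 bases before the RefSeq start of the receptors are printed because Fzd1 and Fzd4, members of the same family, went opposite ways from 1 to 4 h in fresh follicles. Sequences are credited to RefSeq on GRCm38.p6, where 4 of the 5 genes matched an entry, and run 5′ to 3′ along the gene. Capitals mark every match, on either strand, to TGACG (a half-site of the cAMP response element), CTTTG (the core of the TCF/LEF motif) or GGGCGG (an Sp1 box). The Fzd1 window is chr5:4758217-4758466 on the minus strand, and the Fzd4 window is chr7:89404116-89404365 on the plus strand.
Fzd1: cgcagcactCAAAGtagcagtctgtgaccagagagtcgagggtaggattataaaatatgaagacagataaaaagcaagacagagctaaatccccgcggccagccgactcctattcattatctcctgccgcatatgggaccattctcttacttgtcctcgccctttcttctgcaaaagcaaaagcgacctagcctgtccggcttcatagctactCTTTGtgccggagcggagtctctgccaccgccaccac
Fzd4: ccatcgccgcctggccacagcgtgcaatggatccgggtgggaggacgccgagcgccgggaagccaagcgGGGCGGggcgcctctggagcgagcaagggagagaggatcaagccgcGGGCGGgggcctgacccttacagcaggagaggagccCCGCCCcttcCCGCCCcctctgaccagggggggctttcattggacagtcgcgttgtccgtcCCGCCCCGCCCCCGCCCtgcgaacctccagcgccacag
The Fzd1 window had 51.2% G and C and 2 matches to CTTTG, with the first base 241 and 37 bases before the RefSeq start, and no match to the other motifs. This window stops at chr5:4758217, upstream of the 5′ end of Fzd1 in GENCODE at 4758035. The bases after this start were not found in a GENCODE transcript of Fzd1, while those of Fzd4 were found. For Fzd1 the start and direction thus rest on RefSeq alone. The Fzd4 window had 72.8% G and C and 7 matches to GGGCGG, some of them overlapping, and no match to the other motifs. Over all 32817 RefSeq windows of this length, 48.59% held CTTTG, 32.72% held GGGCGG and 17.75% held TGACG. These are matches of letters and not sites shown to be bound.

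Sfrp4, the secreted inhibitor, was the member that differed most between vitrified and fresh follicles. Medians were higher in vitrified follicles at every time, on every plate. At 0 h, the 18 fresh follicles had a lowest value of 0, a median of 1.76 and a highest value of 40.3 CPM, and the 15 vitrified follicles had 7.25, 35.9 and 142 CPM. The groups overlapped, and the log2 fold change was 3.23 ± 0.55 (SE). The single fresh library at 0 had a count of 0, which at its depth allows up to 1.58 CPM.

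At 1 h Sfrp4 stood higher in both kinds than at 0 h. The 6 fresh follicles had 28.1, 34.2, 39.7, 40.1, 60.2 and 156 CPM. The 5 vitrified follicles of the shared plate had 291, 359, 489, 893 and 1643 CPM. All 5 lay above all 6 fresh follicles, and the log2 fold change was 3.62 ± 0.88. On the vitrified-only plate the 9 follicles had a lowest value of 152, a median of 551 and a highest value of 986 CPM, a log2 difference of -0.63 ± 0.74 from the shared plate, with overlap. The lowest of these 9 lay just under the highest fresh follicle.

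At 4 h the vitrified follicles reached their highest Sfrp4. The 7 vitrified follicles had a lowest value of 2672, a median of 6172 and a highest value of 8598 CPM. The 7 fresh follicles had 79.5, 82.4, 90.95, 105, 137, 216 and 4117 CPM. The groups overlapped through fresh replicate 7 alone. The log2 fold change was 3.13 ± 0.78 with that library and 5.67 ± 0.81, or 50.9-fold, without it. Its 4117 CPM rested on 7790 counts in a library of 2544720. Its summed theca and stroma markers stood at 957 CPM, the median of its group. Without it, edgeR called 19 genes other than Sfrp4 between vitrified and fresh follicles at 4 h, and for these its values lay nearer the other fresh libraries for 11 and nearer the vitrified libraries for 8.

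At 8 h the 4 fresh follicles had 61.9, 149, 201 and 526.2 CPM of Sfrp4, and the 3 vitrified follicles of the shared plate had 2024, 2606 and 4855 CPM. All 3 lay above all 4, and the log2 fold change was 3.75 ± 1.09. On the vitrified-only plate the 9 follicles had a lowest value of 662, a median of 1316 and a highest value of 2652 CPM, a log2 difference of -1.13 ± 0.84 from the shared plate. Even the lowest of these 9 was above the highest fresh follicle, though the plates differ. Leaving out any 1 library of the groups compared kept the 8 h log2 fold change between 3.34 and 4.55.

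**Figure D1:**
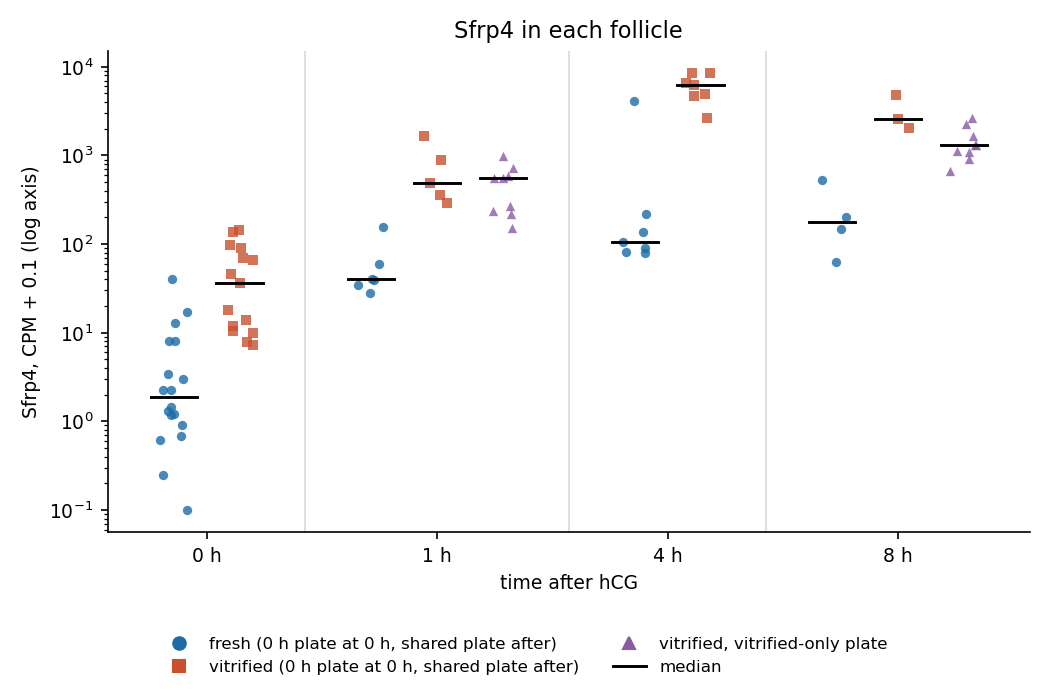
Sfrp4 in each of the 83 follicles by time after hCG (horizontal) and CPM plus 0.1 on a log axis (vertical). Circles are fresh follicles, squares vitrified follicles of the 0 h and shared plates, triangles those of the vitrified-only plate, and bars medians. Vitrified medians lie above fresh medians at each time, and 1 fresh follicle at 4 h, at 4117 CPM, lies among the vitrified follicles.

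Over time, Sfrp4 in vitrified follicles went from a mean of 50.7 ± 47.1 CPM (SD, n = 15) at 0 h to 735 ± 559 (n = 5) at 1 h and 6018 ± 2136 (n = 7) at 4 h on the shared plate. The steps were 3.87 ± 0.64 and 3.03 ± 0.89 on the log2 scale, and neighbouring groups did not overlap. From 4 to 8 h the vitrified level stood at -0.93 ± 0.97, with overlap. From 1 to 8 h it was 2.10 ± 0.96 higher on the shared plate and 1.60 ± 0.65 higher on the vitrified-only plate. By limma on the authors' log2(TPM + 1) these were 3.23 and 2.77, and by total counts the latter was 2.43. Fresh follicles went 3.48 ± 0.64 higher from 0 to 1 h. Their later steps turned on replicate 7. The step from 1 to 4 h was 3.52 ± 0.85 with it and 0.98 ± 0.69 without it, and the step from 4 to 8 h was -1.56 ± 0.90 with it and 0.99 ± 0.74 without it. Vitrified steps minus fresh steps gave 0.39 ± 1.01 from 0 to 1 h, -0.49 ± 1.09 from 1 to 4 h and 0.63 ± 1.24 from 4 to 8 h. Without replicate 7 the later pair became 2.06 and -1.92.

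Ordered by median, Sfrp4 was lowest in fresh 0 h follicles, followed by vitrified 0 h, fresh 1 h, fresh 4 h, fresh 8 h, vitrified 1 h on both plates, vitrified 8 h on the vitrified-only plate, vitrified 8 h on the shared plate, and vitrified 4 h. Each group overlapped the next in this order. All groups of fresh follicles after hCG thus had lower medians than any vitrified group after hCG. Per transcript length, in the authors' TPM, mean Sfrp4 was 2.18 in fresh follicles at 0 h, below Ctnnb1 at 18.2, and 1978 in vitrified follicles at 4 h, where Ctnnb1 stood at 25.4. It was the member with the highest mean TPM in every vitrified group and in fresh follicles at 4 and 8 h.

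Of all 11889 genes tested, the one whose level went most closely with Sfrp4 on the shared plate was Epdr1. It encodes ependymin-related protein 1 and is the neighbour of Sfrp4 on the chromosome. Genes were ranked on this plate only. This likeness is Pearson's r of log2 CPM, described without a p because the libraries share plates and times. For Epdr1 it was 0.90 over the 32 libraries of the shared plate, 0.88 over the 18 of the vitrified-only plate and 0.76 over the 33 of the 0 h plate. Over deviations from each group's mean, so within groups, r was 0.71 over all 83 libraries and 0.67 without fresh 4 h replicate 7. The next places were Slc37a2 and Lix1l, with r of 0.81 and 0.78 on the shared plate but 0.27 and 0.10 on the vitrified-only plate.

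Epdr1 lies on the minus strand at chr13:19591706-19619927, and Sfrp4 on the plus strand, so that they point away from each other with 3177 bases between their starts. Epdr1 had a median of 8.17 CPM in fresh and 13.4 in vitrified follicles at 0 h. At 4 h the other 6 fresh follicles had 8.45 to 13.1 CPM, the 7 vitrified follicles 26.3 to 106 CPM, and fresh replicate 7 had 40.7 CPM. The library with the most Sfrp4 among fresh follicles thus had Epdr1 within the range of the vitrified follicles too. Vitrified minus fresh, Epdr1 differed by 0.58 ± 0.22, 1.29 ± 0.37, 2.15 ± 0.33 and 1.43 ± 0.43 on the log2 scale at 0, 1, 4 and 8 h. Without fresh replicate 7 the 4 h value was 2.61 ± 0.33. At an adjusted p under 0.05, edgeR called Epdr1 at 4 h only, and DESeq2 and limma called it at 8 h too. Epdr1 was picked for its likeness to Sfrp4 in these same libraries, so its calls in part repeat that choice. Nothing is read from these calls, nor from setting them beside those of other genes nearby. Within 500 kb of Sfrp4 the annotation holds 30 other genes, of which 5 were tested. The 4 besides Epdr1 had r with Sfrp4 from -0.14 to 0.49, and edgeR called none of them between vitrified and fresh follicles at any time.

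**Figure D2:**
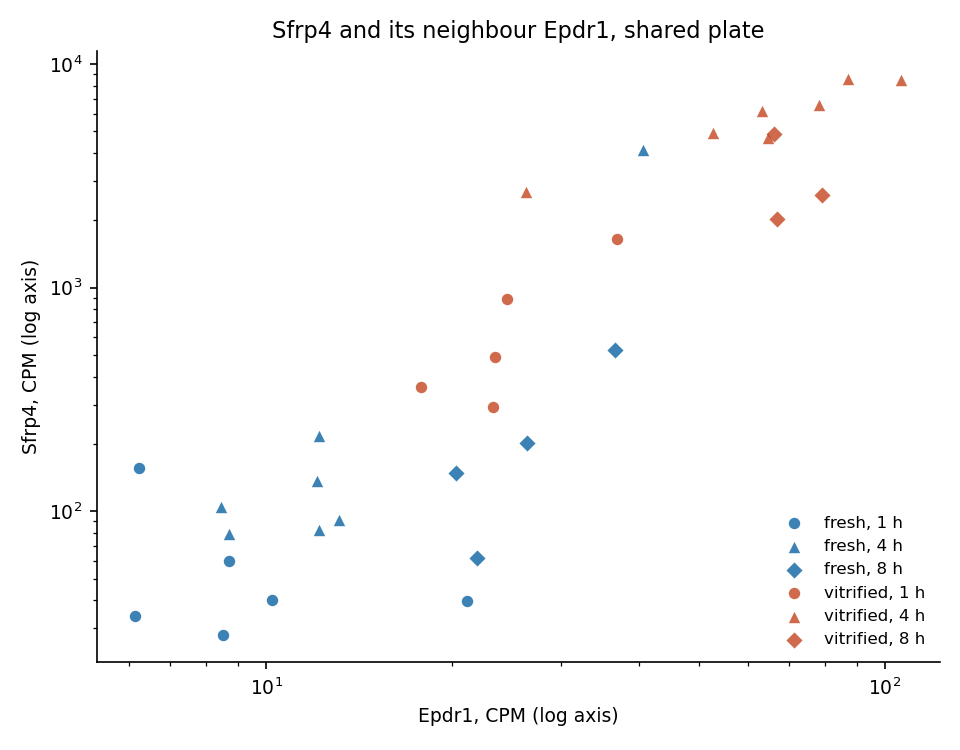
Sfrp4 (vertical) against Epdr1 (horizontal) in the 32 libraries of the shared plate, both as CPM on log axes. Colours are fresh (blue) and vitrified (orange) follicles, and circles, triangles and diamonds are 1, 4 and 8 h. Fresh 4 h replicate 7, with 40.7 CPM of Epdr1 and 4117 CPM of Sfrp4, lies with the vitrified follicles.

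Fzd4, a Frizzled receptor, stood high at 1 h and near the floor by 4 h, in fresh and vitrified follicles alike in direction. At 1 h the 6 fresh follicles had 58.8, 62.2, 65.3, 66.2, 71.8 and 94.9 CPM, and the 5 vitrified follicles of the shared plate 51.3, 57.0, 62.8, 70.7 and 88.6 CPM. On the vitrified-only plate the lowest, median and highest were 28.4, 69.7 and 114 CPM. At 0 h the lowest, median and highest were 9.59, 15.8 and 30.4 CPM in fresh and 11.1, 18.5 and 30.3 CPM in vitrified follicles. Fresh and vitrified follicles overlapped at both times.

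By 4 h the 7 fresh follicles had 0.529, 0.640, 1.51, 1.63, 2.43, 3.04 and 3.25 CPM of Fzd4, on 1 to 8 counts a library. The 7 vitrified follicles had 0, 0.540, 0.967, 0.972, 1.06, 2.92 and 4.81 CPM, and the count of 0 allows up to 1.46 CPM. At 8 h the highest value in any follicle of either kind was 7.75 CPM, on the vitrified-only plate. From 0 to 1 h Fzd4 was 2.03 ± 0.20 higher in fresh and 1.82 ± 0.22 higher in vitrified follicles on the log2 scale. From 1 to 4 h the change was -5.17 ± 0.34 and -5.25 ± 0.35, and neighbouring groups did not overlap at either step. Summed theca and stroma markers were also lower at 4 h than at 1 h, as given above.

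Vitrified minus fresh, Fzd4 differed by 0.14 ± 0.17, -0.08 ± 0.27, -0.16 ± 0.45 and 0.57 ± 0.46 on the log2 scale at 0, 1, 4 and 8 h, each time with overlap. From 1 to 8 h it was -4.58 ± 0.44 on the shared plate and -3.96 ± 0.25 on the vitrified-only plate. In order, the 5 groups of 4 and 8 h came lowest, the 2 groups of 0 h next and the 3 groups of 1 h highest. The vitrified-only 8 h group did not overlap the fresh 0 h group above it, and the vitrified 0 h group did not overlap the vitrified 1 h group of the shared plate. Other neighbours in the order overlapped. The genes most like Fzd4 on the shared plate were Greb1l, Amotl2 (angiomotin-like 2, a partner of the Hippo pathway's YAP) and Klf4 (a zinc-finger transcription factor), with r of 0.98, 0.97 and 0.96, and 0.97, 0.94 and 0.93 on the vitrified-only plate. Within groups their r was only 0.55, 0.23 and 0.12, and on the 0 h plate 0.51, -0.02 and -0.03. The high values thus lay mostly in differences between groups.

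Fzd1, also a Frizzled receptor, had a higher median at each later time in fresh follicles and was highest there at 8 h. Medians in fresh follicles were 1.14 CPM at 0 h, 5.03 at 1 h, 16.3 at 4 h and 54.0 at 8 h. The 4 fresh follicles at 8 h had 25.6, 30.9, 77.1 and 84.6 CPM, all above the 7 at 4 h, which had 4.03, 6.81, 11.5, 16.3, 16.9, 17.4 and 23.8 CPM. The steps were 1.81 ± 0.46, 1.38 ± 0.49 and 1.97 ± 0.46 on the log2 scale. Groups overlapped from 0 to 1 h and from 1 to 4 h. By limma on the authors' log2(TPM + 1) the step from 0 to 1 h was 1.27.

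In vitrified follicles Fzd1 at 8 h depended on the plate. The 3 follicles of the shared plate had 7.75, 10.4 and 14.3 CPM, below all 4 fresh follicles, a log2 fold change of -2.32 ± 0.60. The 9 of the vitrified-only plate had a lowest value of 19.3, a median of 28.2 and a highest value of 115 CPM, and all lay above the 3 of the shared plate, by 1.88 ± 0.55. From 1 to 8 h Fzd1 was 2.73 ± 0.40 higher on the vitrified-only plate and -0.07 ± 0.56 on the shared plate. This shared-plate value turned on vitrified 1 h replicate 4, and was 1.28 without it. The vitrified-only follicles at 8 h thus lay between the 3 shared-plate follicles and, by median, the fresh ones. With a single plate term in the model the 8 h difference between vitrified and fresh follicles became -0.91.

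At the earlier times fresh and vitrified follicles overlapped in Fzd1. At 0 h the 15 vitrified follicles had a median of 1.39 CPM and a difference of -0.07 ± 0.42 from fresh. At 1 h the fresh follicles had 4.10 to 6.64 CPM and the vitrified follicles of the shared plate 2.71, 3.26, 4.13, 7.17 and 41.2 CPM. The difference was 1.09 ± 0.51 with replicate 4 and -0.26 without it. The step from 1 to 4 h in vitrified follicles was 0.50 ± 0.46 with it and 1.85 without it. At 4 h the 7 vitrified follicles had 7.25, 7.28, 8.88, 9.92, 22.7, 25.4 and 31.1 CPM, a difference of 0.21 ± 0.43 from fresh. In the order of medians, fresh 1 h did not overlap vitrified 4 h above it, and all other neighbours overlapped. The genes most like Fzd1 on the shared plate were Rras2 (a Ras-related GTPase), Tprgl and Ywhah (a 14-3-3 protein), with r of 0.89, 0.87 and 0.86, and 0.87, 0.78 and 0.64 on the vitrified-only plate. Within groups their r was 0.44, 0.64 and 0.43, and on the 0 h plate -0.007, 0.35 and 0.21.

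Ctnnb1, which encodes beta-catenin, had medians within a narrow range in most groups and a low median in 1 of them. Single follicles spread more widely, for example from 46.3 to 207 CPM in vitrified follicles at 0 h. Group medians lay between 138 CPM (vitrified, 0 h) and 235 CPM (vitrified 1 h, vitrified-only plate), apart from the vitrified 8 h follicles of the shared plate, whose median was 50.6. These 3 follicles had 9.74, 50.6 and 50.7 CPM, on 60 to 386 counts. The 4 fresh follicles at 8 h had 169, 209, 217 and 221 CPM, all above them, and the log2 difference was -2.47 ± 0.39. The 9 vitrified 8 h follicles of the vitrified-only plate had a lowest value of 64.1, a median of 159 and a highest value of 231 CPM, all above the same 3, by 2.09 ± 0.36. The lowest of the 3, replicate 3, bore on the size: without it the difference from fresh was -1.98. With a single plate term in the model it was -1.40. The 3 libraries had 1915521 to 5781343 counts and 14432 to 17233 detected genes. Their summed immune markers, given above, were higher than in the 4 fresh follicles, and the part of these markers in the 8 h differences of Ctnnb1, Fzd1, Wnt4 and Gsk3b was not tested.

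At 0, 1 and 4 h vitrified and fresh follicles differed in Ctnnb1 by -0.13 ± 0.16, 0.30 ± 0.28 and 0.14 ± 0.25 on the log2 scale, with overlap. The direction of the small steps in fresh follicles depended on the scaling. From 4 to 8 h the change was -0.10 ± 0.29 by TMM and 0.53 by total counts, where the 4 follicles at 8 h all stood above the 7 at 4 h, and from 0 to 1 h it was 0.31 ± 0.22 by TMM and -0.17 by total counts. In vitrified follicles from 4 to 8 h it was -2.70 ± 0.38 on the shared plate (-1.63 with a single plate term), and from 1 to 8 h -0.65 ± 0.22 on the vitrified-only plate by TMM but 0.16 by total counts. The genes most like Ctnnb1 on the shared plate included Txnrd1 (thioredoxin reductase) and Mgat2 (an enzyme of N-glycan synthesis), with r of 0.88 and 0.86, and 0.80 and 0.83 on the vitrified-only plate. Within groups their r was 0.70 and 0.65, and on the 0 h plate 0.78 and 0.60. Every neighbouring pair of groups in the order of Ctnnb1 medians overlapped.

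Wnt4, the ligand, was near the floor in all groups. Counts ranged from 0 to 26, and 28 of 83 libraries had none, which at their depths allows between 0.548 and 4.36 CPM. Its highest group was vitrified 8 h on the shared plate, with 2.90, 3.41 and 3.42 CPM on 7 to 26 counts. The 4 fresh follicles at 8 h had 0.904, 1.47, 1.47 and 2.31 CPM and lay below these 3, a log2 difference of 1.07 ± 0.82. On the vitrified-only plate the lowest, median and highest at 8 h were 0, 0.778 and 3.28 CPM, a difference of -1.54 ± 0.69 from the shared plate, with overlap.

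At 0, 1 and 4 h Wnt4 medians were at most 1.34 CPM, and vitrified and fresh follicles overlapped. The log2 differences on the 0 h and shared plates were -0.53 ± 0.54, -0.05 ± 1.00 and -0.84 ± 1.01. From 4 to 8 h it was 3.36 ± 0.90 higher in vitrified follicles of the shared plate and 1.44 ± 0.84 in fresh follicles. These values rest on a few counts a library. The genes most like Wnt4 on the shared plate included Acbd4 and Tk2 (mitochondrial thymidine kinase), with r of 0.79 and 0.75, but -0.23 and -0.09 on the vitrified-only plate. The remaining place was a row whose symbol reads as a date.

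**Figure D3:**
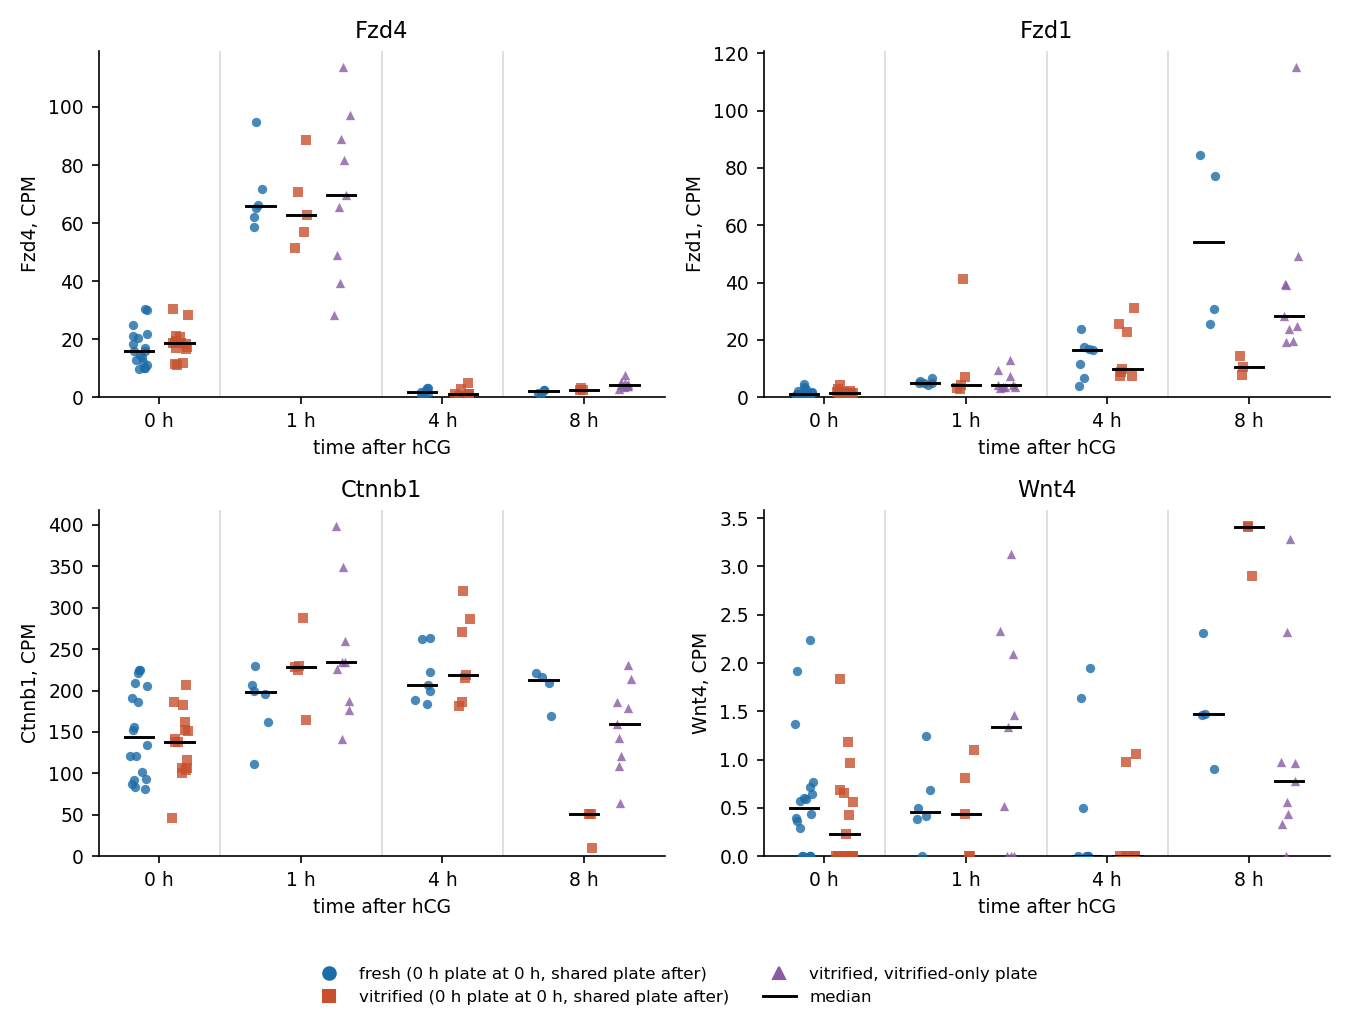
Fzd4, Fzd1, Ctnnb1 and Wnt4 in each follicle as CPM on linear axes from 0 (vertical) by time after hCG (horizontal). Circles are fresh follicles, squares vitrified follicles of the 0 h and shared plates, triangles those of the vitrified-only plate, and bars medians. Fzd4 peaks at 1 h, Fzd1 is highest at 8 h in fresh follicles and on the vitrified-only plate, and the 3 shared-plate vitrified follicles at 8 h have at most 50.7 CPM of Ctnnb1.

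Counted over the 5 genes, groups did not overlap for 1 gene at 1 h (Sfrp4) and for 4 at 8 h (Sfrp4 and Wnt4 higher, Fzd1 and Ctnnb1 lower in vitrified follicles), and overlapped for all 5 at 0 and 4 h. Over all 11889 genes tested, 0% did not overlap between vitrified and fresh follicles at 0 h, 0.757% at 1 h, 0.126% at 4 h and 10.6% at 8 h. These genes were chosen with such values in view, so nothing is read from their counts. Between plates of vitrified follicles none of the 5 was apart at 1 h, against 0.395% of all genes, and Fzd1 and Ctnnb1 were apart at 8 h, against 15.1%. In time, Fzd4 was apart from 0 to 1 h and from 1 to 4 h in fresh follicles (10.4% and 22.4% of all genes) and Fzd1 from 4 to 8 h (24.7%). In vitrified follicles Sfrp4 and Fzd4 were apart at the first steps (12.5% and 23.6%) and Wnt4 and Ctnnb1 from 4 to 8 h (25.7%). From 1 to 8 h, 4 genes were apart on the shared plate (39.6%) and Fzd1 and Fzd4 on the vitrified-only plate (22.5%).

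**Figure D4:**
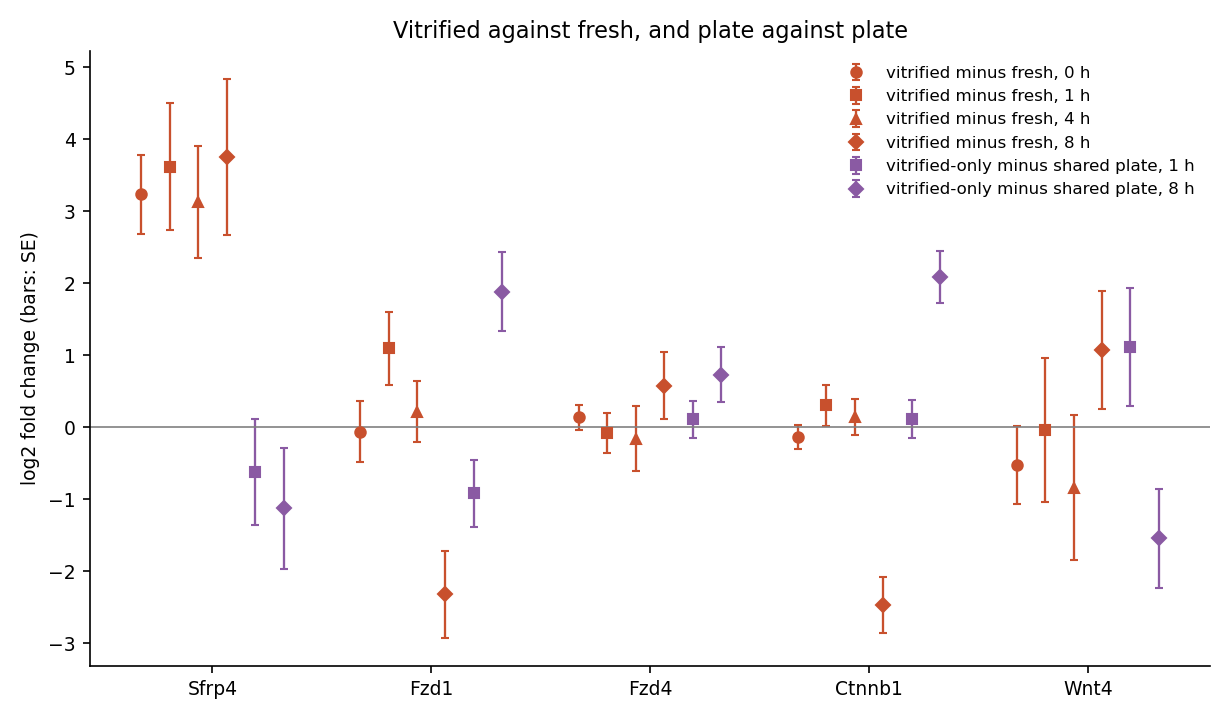
Log2 fold changes (points) with SE (bars) of the 5 genes for vitrified minus fresh follicles at 0, 1, 4 and 8 h (orange) and for the vitrified-only minus the shared plate in vitrified follicles at 1 and 8 h (purple). Sfrp4 is higher in vitrified follicles at all 4 times. The 8 h values of both kinds share the 3 vitrified libraries of the shared plate, with opposite sign.

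The other genes of the pathway were taken from a list of 90 that holds none of the 5. Of these, 76 had a row, the remaining 14 were not analysed here, and 50 passed the filter on low counts. Calls below are edgeR's quasi-likelihood test at a Benjamini-Hochberg adjusted p under 0.05 over all genes tested. Comparisons of vitrified with fresh follicles at the same time share no libraries with each other, but neighbouring steps in time do.

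Between vitrified and fresh follicles few of the 50 were called. At 0 h 1 was lower, against 0.967% of all genes. It was Myc, a transcription factor and a frequent target of the pathway, at 7.23 ± 3.58 CPM in vitrified (SD, n = 15) and 14.4 ± 9.53 CPM in fresh follicles (n = 18), and the log2 fold change was -0.96 ± 0.23 (adjusted p = 0.0171 by edgeR). With only the 0 h groups in the model its adjusted p was 0.0592. At 8 h 1 was lower, against 2.06% of all genes. This was Gsk3b, the kinase that phosphorylates beta-catenin in the destruction complex, at 13.99 ± 5.22 CPM (n = 3) against 30.7 ± 5.69 CPM (n = 4), and the log2 fold change was -1.16 ± 0.30 (adjusted p = 0.0167 by edgeR). The call was lost without vitrified 8 h replicate 2 or 3 or fresh 8 h replicate 4 (edgeR adjusted p of 0.0737, 0.334 and 0.0849), in a fit of these groups alone (0.108) and with a single plate term (0.782).

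At 1 h and at 4 h edgeR called 0 of the 50, against 0.555% and 0.118% of all genes. At an unadjusted p under 0.05 these were 8 and 3 of the 50, and DESeq2 and limma also called 0. The median log2 fold change of the 50 was -0.14, 0.18, 0.01 and 0.02 at 0, 1, 4 and 8 h, beside -0.02, 0.05, 0.01 and 0.10 over all genes. The vitrified step differed from the fresh step for 0 of the 50 by edgeR at 0 to 1, 1 to 4 and 4 to 8 h, against 0.16%, 0.0421% and 0.993% of all genes. At an unadjusted p under 0.05 these were 3, 2 and 8, and DESeq2 and limma each called 1 at 4 to 8 h and none at the other steps.

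Between the plates of vitrified follicles, 1 of the 50 was called at 1 h, against 1.37% of all genes, and 11 at 8 h, 5 higher and 6 lower on the vitrified-only plate, against 23.4%. At 1 h it was Bcl9, a co-activator that binds beta-catenin, at 1.58 ± 1.44 CPM (n = 9) against 4.76 ± 2.22 CPM (n = 5), and it was called by DESeq2 but not by limma. At 8 h Gsk3b was 1.30 ± 0.27 higher (edgeR adjusted p = 0.000198), so that the vitrified-only follicles, at 33.7 ± 10.4 CPM (n = 9), stood near the fresh level of 30.7. Kremen1, a receptor for Dickkopf inhibitors, was 1.58 ± 0.45 higher (edgeR adjusted p = 0.00599), though not called without vitrified 8 h replicate 3 (0.105). Tcf7l2, a DNA-binding partner of beta-catenin, was lower (-1.61 ± 0.29), at 4.00 ± 1.73 against 12.1 ± 2.77 CPM. Without vitrified 8 h replicate 3 the 11 became 7.

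Between neighbouring times 24% to 44% of the 50 were called, against 36.5% to 46.5% of all genes. From 1 to 4 h edgeR called 22 of 50 in fresh follicles (10 higher, 12 lower, against 46.4% of all genes) and 22 in vitrified follicles (9 higher, 13 lower, against 46.5%). Sfrp2, a secreted inhibitor related to Sfrp4, rose from 0.760 ± 0.906 CPM (n = 6) to 42.2 ± 19.9 CPM (n = 7) in fresh follicles, and its log2 fold change was 5.61 ± 0.55 (adjusted p = 2.06e-14 by edgeR). In vitrified follicles it rose from 1.50 ± 0.965 to 19.5 ± 5.33 CPM (edgeR adjusted p = 9.98e-09). Unlike Sfrp4, it had a higher median at 4 h in fresh follicles (47.2 CPM) than in vitrified ones (17.9 CPM), a difference that edgeR did not call. Wnt2, a ligand, went from at most 0.778 CPM at 1 h to between 3.81 and 23.9 CPM at 4 h in fresh follicles. It rose by 5.49 ± 0.54 in fresh and 5.37 ± 0.52 in vitrified follicles (edgeR adjusted p = 7.2e-15 and 4.07e-15). No library of 0 or 1 h held more than 2.10 CPM of Wnt2. It thus passed the filter on low counts through later libraries, which limits these p-values.

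Frzb, a secreted inhibitor of the same family as Sfrp4, fell at that step. It went from 43.7 ± 32.5 to 2.44 ± 1.15 CPM in fresh and from 50.7 ± 45.0 to 2.46 ± 1.57 CPM in vitrified follicles (edgeR adjusted p = 2.61e-08 and 1.05e-08). Lgr6, a receptor for R-spondins, fell as well, with log2 fold changes of -4.78 ± 0.61 in fresh and -3.58 ± 0.62 in vitrified follicles. In the same order, Wls, which carries Wnt ligands to the cell surface, fell (-1.74 ± 0.34 and -1.62 ± 0.35), and so did Lrp5, a Wnt co-receptor (-1.45 ± 0.28 and -1.93 ± 0.29). The corepressor Tle2 fell (-3.08 ± 0.37 and -2.61 ± 0.36). Among nuclear partners, Pygo2 rose by 2.67 ± 0.35 and 2.34 ± 0.35. Tcf7l2 rose too, from 6.02 ± 2.11 to 24.2 ± 5.98 CPM in fresh and from 5.66 ± 1.16 to 31.7 ± 4.22 CPM in vitrified follicles. Theca and stroma markers were lower at 4 h too, and their part in these falls was not tested.

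From 4 to 8 h edgeR called 12 of 50 in fresh follicles (6 higher and 6 lower, against 36.5% of all genes) and 17 in vitrified follicles (6 higher and 11 lower, against 37.1%). By total counts the split was 12 higher and 2 lower in fresh, and 11 higher and 3 lower in vitrified follicles. Porcn, the enzyme that attaches the lipid to Wnt ligands, rose from at most 0.545 CPM to between 4.45 and 13.2 CPM in fresh follicles (edgeR adjusted p = 1.67e-08) and from at most 1.08 to between 5.39 and 14.9 CPM in vitrified follicles (edgeR adjusted p = 7.39e-09). No library of 0, 1 or 4 h held more than 3.72 CPM of Porcn. It thus passed the filter on low counts mainly through libraries of 8 h, which limits its p-values here. Wls rose as well, by 1.50 ± 0.37 and 1.27 ± 0.40. Bcl9l, a co-activator related to Bcl9, rose by 2.53 ± 0.37 and 2.79 ± 0.38. The corepressor Tle4 fell (-2.46 ± 0.59 and -1.75 ± 0.63). Granulosa cell markers were lower at 8 h too, and their part in these changes, and in those of the 5 genes from 4 or 1 h to 8 h, was not tested.

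From 0 to 1 h, where the plate changes too, edgeR called 19 of 50 in fresh follicles (8 higher and 11 lower, against 42.1% of all genes) and 18 in vitrified follicles (12 higher and 6 lower, against 43.5%). By total counts the split was 5 higher and 17 lower in fresh, and 9 higher and 18 lower in vitrified follicles. Myc rose from 14.4 ± 9.53 to 137 ± 33.8 CPM in fresh follicles, by 3.20 ± 0.25 (edgeR adjusted p = 3.36e-19), and by 3.38 ± 0.29 in vitrified follicles (1.91e-17). The corepressor Tle3 rose by 2.12 ± 0.23 and 2.43 ± 0.24. Bcl9l fell (-2.64 ± 0.38 and -2.80 ± 0.38), and so did Bcl9 (-1.86 ± 0.26 and -1.51 ± 0.27).

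Within a plate, vitrified follicles from 1 to 8 h gave 21 calls of 50 on the shared plate (9 higher and 12 lower, against 50.1% of all genes) and 27 on the vitrified-only plate (11 higher and 16 lower, against 59.4%). By total counts the splits were 13 higher and 6 lower, and 22 higher and 7 lower. On both plates Sfrp2 rose, by 3.89 ± 0.56 and 4.22 ± 0.40 (edgeR adjusted p = 1.07e-08 and 2.08e-15), as did Bcl9l and Porcn, and Frzb fell (-5.16 ± 0.86 and -5.15 ± 0.53). Scaling by total counts in place of TMM moved the median log2 fold change of all genes by up to 0.78, in the comparison on the vitrified-only plate, and by at most 0.23 between vitrified and fresh follicles.

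**Figure D5:**
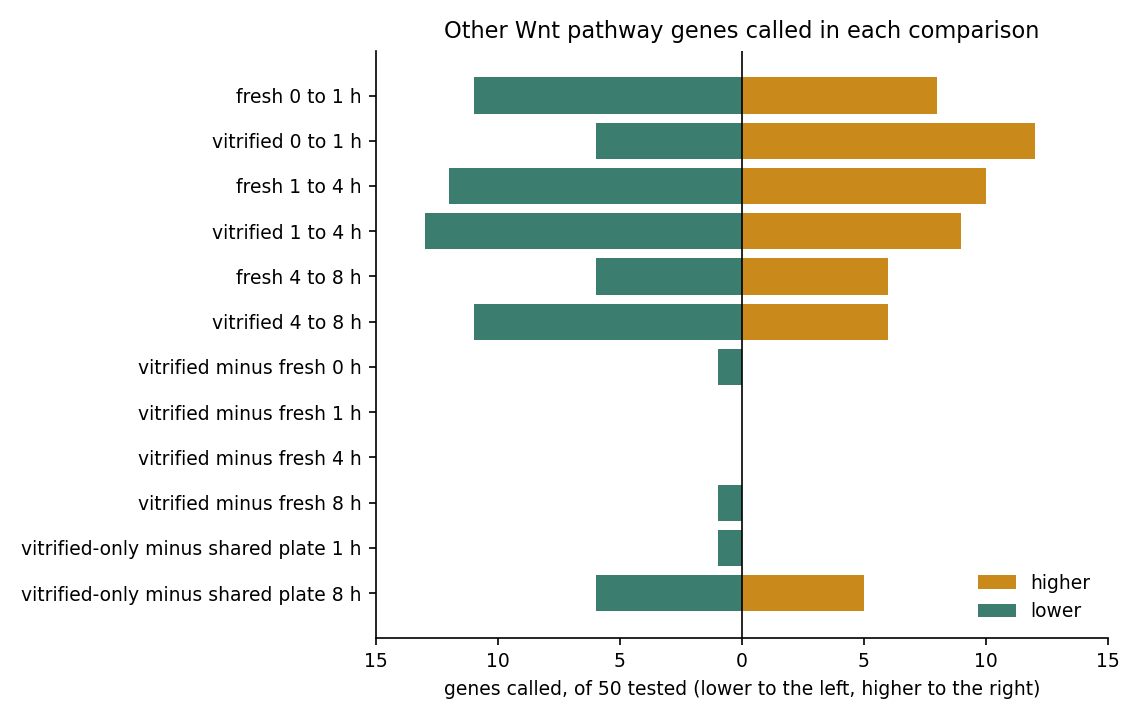
Number of the 50 other pathway genes that edgeR called higher (right) or lower (left). The comparisons drawn are neighbouring times, vitrified minus fresh follicles, and the vitrified-only minus the shared plate. Steps between neighbouring times gave 12 to 22 calls. Vitrified minus fresh gave 1, 0, 0 and 1 at 0, 1, 4 and 8 h, and the plates gave 1 at 1 h and 11 at 8 h.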

How the data were processed

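The authors deposited estimated counts per gene for 83 libraries and the authors' log2(TPM + 1) values for the same libraries, per the deposited tables. Of the count values above 0, 74.69% were exactly whole. The submitters' processing notes list mm10 (GRCm38) as the build and Partek, Bowtie2, HISAT2 and DESeq2 as tools, with no version or role. The treatment of reads that match several genes is not given in the sources used. Smart-Seq2 has no molecular identifiers and Nextera XT does not mark strand, per the labels' protocols, so reads of overlapping antisense genes cannot be told apart.

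Estimated counts were rounded and fitted with edgeR 4.0.16 (R 4.3.3), robust quasi-likelihood, with TMM scaling. Its expression filter (minimum count 10) kept 11889 genes. The model had a mean for each of 10 combinations of group and plate, with 17 comparisons. P-values were Benjamini-Hochberg adjusted within a comparison. SE were derived from the F statistic. CPM are TMM-scaled unless said otherwise. The test was also run on simulated counts, with the same spread for all genes and no difference between plates. Those settings are unlike these data, so the run does not check the test for them. Alternatives were total-count scaling, DESeq2 1.42.0, limma 3.58.1 on the authors' log2 values, no filter, an additive plate term, only the groups compared, and leaving out each library of groups of up to 5. Leaving out fresh 4 h replicate 7 was chosen after seeing the data.

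The 5 genes, the lists and the tests were chosen with earlier results of these data known. Pathway genes were named, per comparison, as up to 4 called in each direction with the largest log2 fold change and a mean of at least 5 CPM in one of the groups. A gene so named in 1 kind of follicle is also given in the other, and Bcl9 between plates was named after its values were seen. For each of the 5 genes the 3 with the highest r on the shared plate were named, apart from 1 that is not reported here. Over 406 pairs of libraries within a group, the lowest ratio of the difference to sampling noise was 1.97, so no library was counted as a copy of another. Intervals of counting error allow 3 counts where a count was 0.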

Additional observations from a re-analysis of the deposited data

Results flagged for a closer look

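Within groups of 4 to 10 follicles, 35 sets of values of the 5 genes were checked for a highest or lowest follicle standing far from the rest, measured as its gap to the nearest follicle over the range of the group. Of these sets 6 stood out, each through its highest follicle. The rule would flag about 1 in 20 sets of normally distributed values. These were CPM without logs, of genes chosen from the same values, so the 6 cannot be set against that rate. For Sfrp4 these were fresh 1 h replicate 3, at 156 CPM where the others had 28.1 to 60.2, and fresh 4 h replicate 7, at 4117 CPM where the others had 79.5 to 216. For Fzd1 they were vitrified 1 h replicate 4 on the shared plate, at 41.2 CPM on 102 counts where the others had 2.71 to 7.17, and vitrified 8 h replicate 7 on the vitrified-only plate, at 115 CPM where the others had 19.3 to 49.3. For Fzd4 they were fresh 1 h replicate 5, at 94.9 CPM where the others had 58.8 to 71.8, and vitrified 8 h replicate 6 on the vitrified-only plate, at 7.75 CPM where the others had 2.77 to 5.08. Labels give no animal, culture run or other property of these follicles.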

How the results depend on the processing

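No paired analysis was possible because the labels give no replicate number shared between groups. Of 167 alternative values of the pathway gene counts, 145 stayed within 1.5 times the count reported and 22 did not. With only the groups compared in the fit, the counts became 12 for vitrified 1 to 4 h, 0 for vitrified minus fresh at 0 h, 0 between plates at 1 h and 1 for the difference of the 4 to 8 h steps. With limma they became 8 for vitrified 4 to 8 h, 6 for vitrified minus fresh at 0 h, 3 at 8 h, 0 between plates at 1 h and 1 for the 4 to 8 h difference. With DESeq2 vitrified minus fresh at 8 h became 3 and the 4 to 8 h difference 1, and with an additive plate term the 8 h count became 0. Leaving out single libraries gave 10 to 15 for vitrified 4 to 8 h, 0 to 1 for vitrified minus fresh at 1 h, 0 to 2 at 8 h, 1 to 2 between plates at 1 h, 7 to 10 at 8 h and 0 to 2 for the 4 to 8 h difference. Of 749 alternative fold changes of the 5 genes, 50 had the other sign. In 47 of these the reported value lay within 2 SE of 0, among them Sfrp4 in fresh follicles from 4 to 8 h, at 0.70 by limma and 0.99 without fresh 4 h replicate 7. In 3 it lay beyond 2 SE: Ctnnb1 from 1 to 8 h on the vitrified-only plate (0.16 by total counts, 0.37 by limma on log2(TPM + 1)) and vitrified minus fresh Fzd1 at 1 h, which ran from -0.26, without vitrified 1 h replicate 4, to 1.36 as single libraries were left out. For Sfrp4, vitrified minus fresh at 4 h was 4.90 by limma and 5.67 without fresh 4 h replicate 7. Of 700 values of other named genes, 657 kept their call, 39 lost it and 4 gained one. The cause was not tested. Wnt4, and Fzd4 at 4 and 8 h, rest on few counts, which limits their precision.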
